A study of Homo sapiens with 12 samples.

Results

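The genes described here are the amino acid transporter families of the solute carrier (SLC) superfamily in K562 cells, a human erythroleukemia line whose growth depends on the fusion kinase BCR-ABL1. They were taken as every protein-coding gene named SLC1A, SLC3A, SLC6A, SLC7A, SLC36A, SLC38A or SLC43A followed by a number, with SLC7A11 left out. This gave 58 of the 58735 genes listed, of which 19951 were protein-coding. The families held 7 SLC1, 2 SLC3, 19 SLC6, 12 SLC7, 4 SLC36, 11 SLC38 and 3 SLC43 genes. The rule used the name and the gene type, and no measured value.

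RNA-seq was performed on 12 libraries of K562 cells, with 3 biological replicates in each of 4 groups. In the mock DMSO group the cells received neither drug, and in the mock nilotinib group they received 0.1 μM nilotinib, an inhibitor of BCR-ABL1 and other kinases. In the hemin DMSO and hemin nilotinib groups, cells given DMSO vehicle or 0.1 μM nilotinib were then differentiated with 50 μM hemin, a ferric heme that makes K562 cells produce hemoglobin, for 24 h, and the mock groups had 0 h of hemin. The study's methods give a pretreatment of 24 h with DMSO vehicle, alone or with the drug, in all groups, and collection before and after the 24 h with hemin. Hemin and the longer time in culture and in drug therefore cannot be told apart. K562 is 1 established cell line. These were bulk RNA samples, in which fewer cells of a type and less RNA per cell cannot be told apart.

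Library totals were 33457078 to 50506990 counts. In all 12 libraries the erythroid markers GATA1, TAL1, HBG1, HBG2 and EPOR were present, GATA1 at 130.2 to 399.8 CPM, that is counts relative to a library size that edgeR scales by TMM. Their summed level was 592 to 954 CPM in the DMSO libraries and 2416 to 3720.3 CPM in the nilotinib libraries. Of the 10 markers of T cells, B cells, fibroblasts, epithelium and monocytes, MS4A1 was at 0 to 0.02 CPM, while EPCAM reached 27.7 to 65.5 CPM and COL1A1 6.65 to 24.7 CPM. The summed level of these 10 markers was 81.1 to 99.0 CPM in mock DMSO, 53.9 to 70.1 in mock nilotinib, 99.1 to 135.6 in hemin DMSO and 46.4 to 55.9 in hemin nilotinib, and the part of these markers in the results was not tested.

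Amino acid transporters carry amino acids across the plasma membrane and the membranes of lysosomes, some as exchangers of an amino acid outside for another inside, others driven by sodium or proton gradients. The SLC3 proteins are heavy chains that bring SLC7 light chains to the cell surface, where the pair works as a single exchanger. Imported leucine, glutamine and arginine are read by the mTORC1 kinase complex, and red cell precursors need glycine as a building block of heme.

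Of the 58 genes, 31 passed the filter on low counts and were tested among 20821 genes. A further 24 had between 1 and 88 counts over all libraries, with at most 23 in a single library and at most 0.670 CPM, and were not tested. SLC6A14, SLC7A13 and SLC38A11 had no count in any library. A library with 0 counts allows a level of up to 3 counts, which was 0.0540 to 0.0957 CPM here (counting error only). SLC1A1, SLC1A2, SLC1A3 and SLC1A6, the glutamate transporters of neurons, glia and kidney, were among the 24, as was SLC3A1, the heavy chain of the kidney cystine transporter. Tested were all 3 SLC43 genes, 8 of 19 SLC6, 7 of 12 SLC7, 7 of 11 SLC38, 3 of 7 SLC1, 2 of 4 SLC36 and 1 of 2 SLC3 genes. Of the 31, 26 had a mean of at least 1 CPM, and SLC1A7, SLC6A4, SLC6A12, SLC7A3 and SLC7A4 lay below it.

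Levels of different genes were compared per gene length, as FPKM, fragments per kilobase scaled to library size by the authors. In mock DMSO the highest level was that of SLC1A5, the main glutamine exchanger of proliferating cells, at 197 ± 19.3 FPKM (SD, n = 3). It was followed by SLC7A5, the leucine-importing light chain LAT1, at 130.1 ± 11.9, by its heavy chain SLC3A2 (CD98) at 80.2 ± 9.11, and by the sodium-coupled neutral amino acid transporter SLC38A2 at 50.4 ± 0.371 FPKM. The libraries of these 4 genes did not overlap each other in mock DMSO, whereas the next 3 in the order, SLC6A8, SLC38A1 and SLC6A6, had overlapping libraries, at 40.0 ± 15.2, 36.8 ± 3.72 and 34.1 ± 6.54 FPKM, and SLC6A8 also overlapped SLC38A2. In mock nilotinib SLC1A5 was again first, at 115 ± 3.85 FPKM, and SLC7A5 had rank 5 by its mean, at 30.6 ± 8.65. In hemin DMSO the order began with SLC3A2 at 307 ± 12.2, then SLC7A5 at 211 ± 17.6, SLC1A5 at 146 ± 28.9 and SLC38A2 at 125 ± 3.67 FPKM, with SLC1A5 and SLC38A2 overlapping. In hemin nilotinib it began with SLC1A5 at 143 ± 25.8, SLC3A2 at 82.8 ± 32.9 and SLC7A5 at 64.7 ± 31.0 FPKM, and SLC3A2 and SLC7A5 overlapped.

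**Figure D1:**
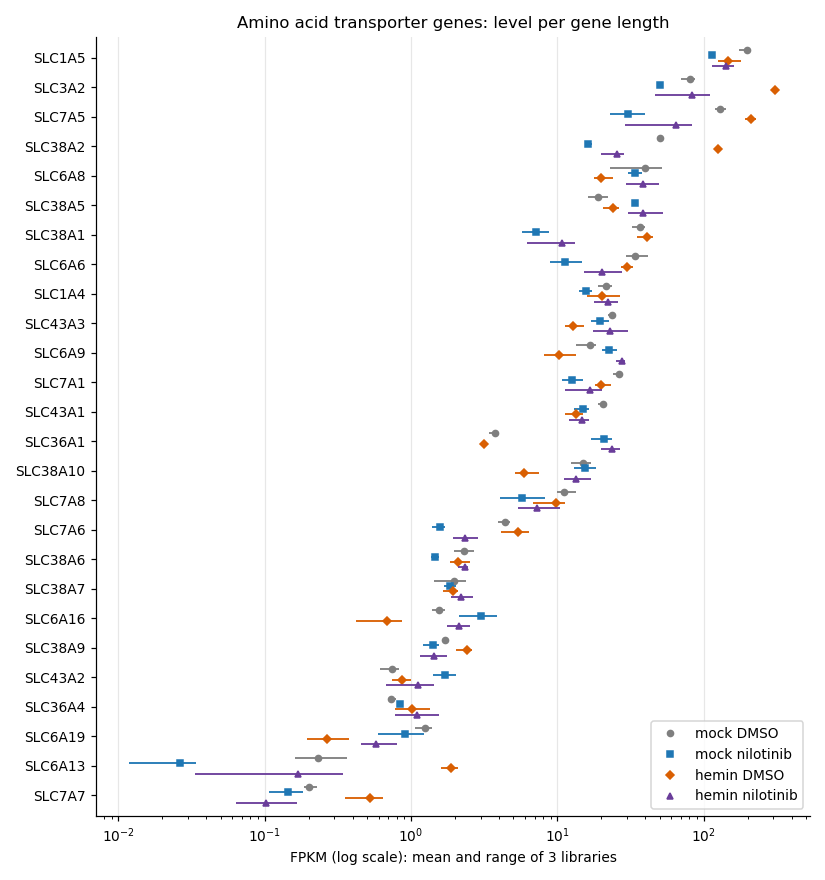
Level of the 26 amino acid transporter genes with a mean of at least 1 CPM, ordered by their mean over all libraries. The horizontal axis is FPKM on a log scale, points are group means and lines the range of the 3 libraries. SLC1A5, SLC3A2, SLC7A5 and SLC38A2 lead, and SLC36A1 lies further right in both nilotinib groups than in both DMSO groups.

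Added over all 58 genes, the level was 742 ± 41.6 FPKM in mock DMSO (SD, n = 3), 439.6 ± 19.2 in mock nilotinib, 1019 ± 72.9 in hemin DMSO and 587 ± 84.1 in hemin nilotinib. The libraries of these groups did not overlap. SLC1A5, SLC3A2, SLC7A5 and SLC38A2 together made up 61.6% of that sum in mock DMSO, 48.3% in mock nilotinib, 77.5% in hemin DMSO and 53.0% in hemin nilotinib. Within hemin nilotinib the share was 42.6% in the lowest library and 59.5% in the highest. No test was run on these sums.

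**Figure D2:**
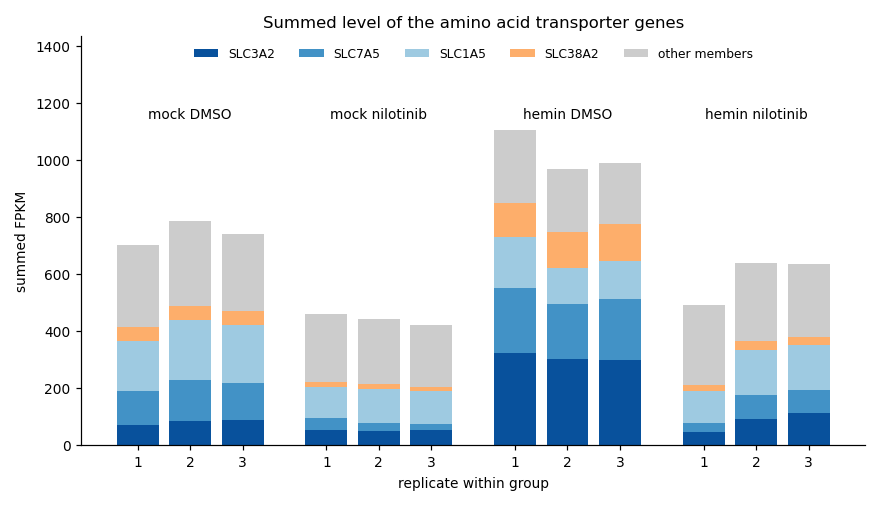
Summed FPKM of the 58 amino acid transporter genes in each library, with the 4 genes of highest level stacked in colour and all others in grey. Bars start at 0 and are grouped by condition, with the replicate number below each. The hemin DMSO bars reach 967 to 1103 and the mock nilotinib bars 420.0 to 458.

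The first comparison asked what nilotinib did without hemin. SLC36A1, a proton-coupled amino acid transporter of lysosomes, was 5.50-fold higher with nilotinib, and the sodium-coupled transporters SLC38A1 and SLC38A2 were 5.14-fold and 3.11-fold lower. SLC7A5 was 4.26-fold lower and SLC6A6, the taurine transporter, 3.02-fold lower. Of the 31 genes tested, 6 rose and 14 fell at an edgeR adjusted p under 0.05, 20 in all or 64.5%, where 20.7% of all genes tested rose, 21.8% fell and 42.5% changed. The median log2 fold change of the 31 was -0.47 and that of all genes was 0.00. The libraries of both groups were separate for 23 of the 31. The share of all genes with separate libraries is not given here, so this count only describes these genes.

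With hemin present, SLC36A1 was 7.68-fold higher in the nilotinib libraries, and SLC6A9, the glycine transporter GLYT1, was 2.75-fold higher. SLC38A2 was 4.75-fold, SLC38A1 3.74-fold, SLC3A2 3.60-fold and SLC7A5 3.17-fold lower. Here 8 genes rose and 12 fell, again 20 of 31 or 64.5%, where 32.4% of all genes rose, 31.8% fell and 64.2% changed, so the share of transporters called was near that of all genes. Their median log2 fold change was 0.02, as was that of all genes, but it was -0.58 by DESeq2 over every transporter fitted (all genes -0.13) and -0.47 over the 55 with at least 1 count (all genes -0.04). The libraries were separate for 19 of the 31 (share of all genes not given).

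**Figure D3:**
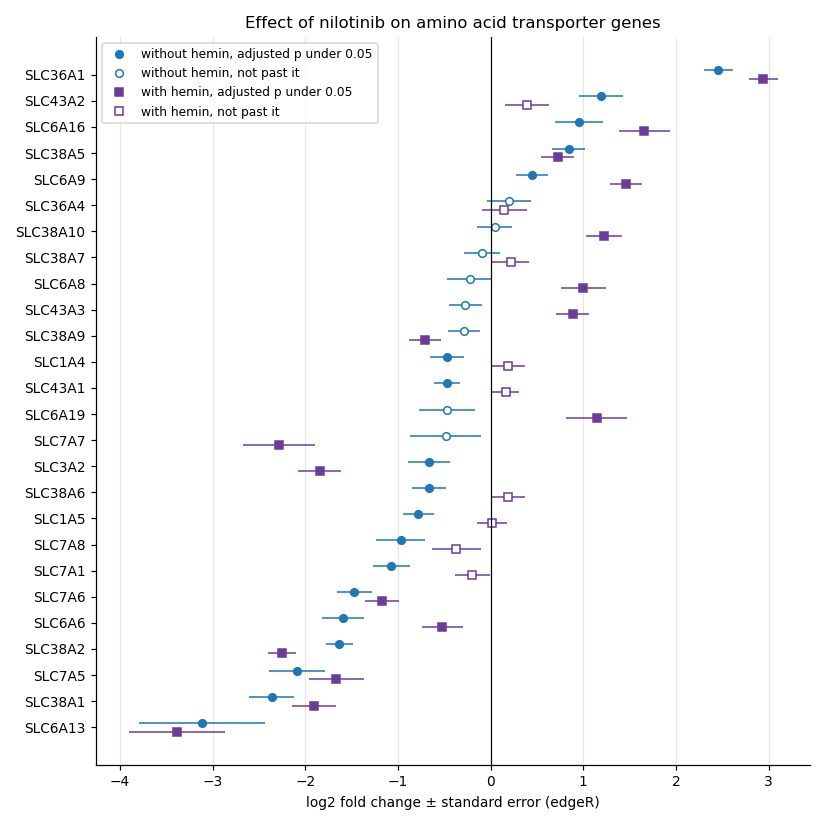
Effect of nilotinib on 26 amino acid transporter genes, without hemin (circles) and with hemin (squares). The horizontal axis is the log2 fold change and its standard error from edgeR, and filled points had an adjusted p under 0.05. SLC36A1 is furthest right in both series of points, and SLC6A13, SLC38A1, SLC7A5 and SLC38A2 are on the left in both.

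Hemin without nilotinib was set against mock DMSO. SLC3A2 was 3.75-fold and SLC38A2 2.43-fold higher in hemin DMSO, and the neighbouring genes SLC6A13 and SLC6A12, carriers of GABA and betaine, were 7.98-fold and 19.2-fold higher from very low levels. SLC6A19, SLC38A10, SLC6A16 and SLC6A8 were 4.71-fold, 2.60-fold, 2.29-fold and 2.05-fold lower. In all 8 genes rose and 8 fell, 16 of 31 or 51.6%, where 25.7% of all genes rose, 27.8% fell and 53.6% changed. With upper-quartile scaling the split was 11 up and 7 down, and with no composition factors 6 up and 10 down (shares of all genes not given). The median of the 31 was 0.14 and that of all genes -0.05, and 17 of the 31 had separate libraries (share of all genes not given).

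In the presence of nilotinib, hemin was followed by fewer calls. SLC6A13, SLC7A5, SLC6A6, SLC38A6 and SLC38A2 rose, by log2 fold changes of 2.73, 1.10, 0.86, 0.70 and 0.67. They were 5 of 31 or 16.1%, where 3.52% of all genes rose, 2.28% fell and 5.8% changed. Separate libraries were found for 5 of the 31 (share of all genes not given), which were SLC1A4, SLC6A6, SLC7A6, SLC38A2 and SLC38A6. The called SLC6A13 and SLC7A5 had overlapping libraries. No gene of the 31 was called lower by edgeR (1 was at an unadjusted p under 0.05), and DESeq2 called 6 higher and 0 lower. The median of the 31 was 0.34 and that of all genes 0.03. None of the 5 calls held under every alternative. Hemin nilotinib replicate 1 lay below the other replicates for SLC7A5, SLC38A2, SLC3A2, SLC38A1 and SLC7A1, and without it 12 genes rose and 1 fell, while without hemin nilotinib replicate 2 or mock nilotinib replicate 2 none was called by edgeR (9 and 10 were at an unadjusted p under 0.05). Same-numbered libraries of mock nilotinib and hemin nilotinib varied together. With a replicate block 4 of the 31 were called, SLC7A5 being lost at an edgeR adjusted p of 0.0516. In a fit of these 6 libraries alone, 4 were called with the replicate block and 0 without it (edgeR, 9 at an unadjusted p under 0.05). The share of all genes called in these alternative fits is not given here, and the number tested changed in some. Their counts therefore only describe these genes.

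**Figure D4:**
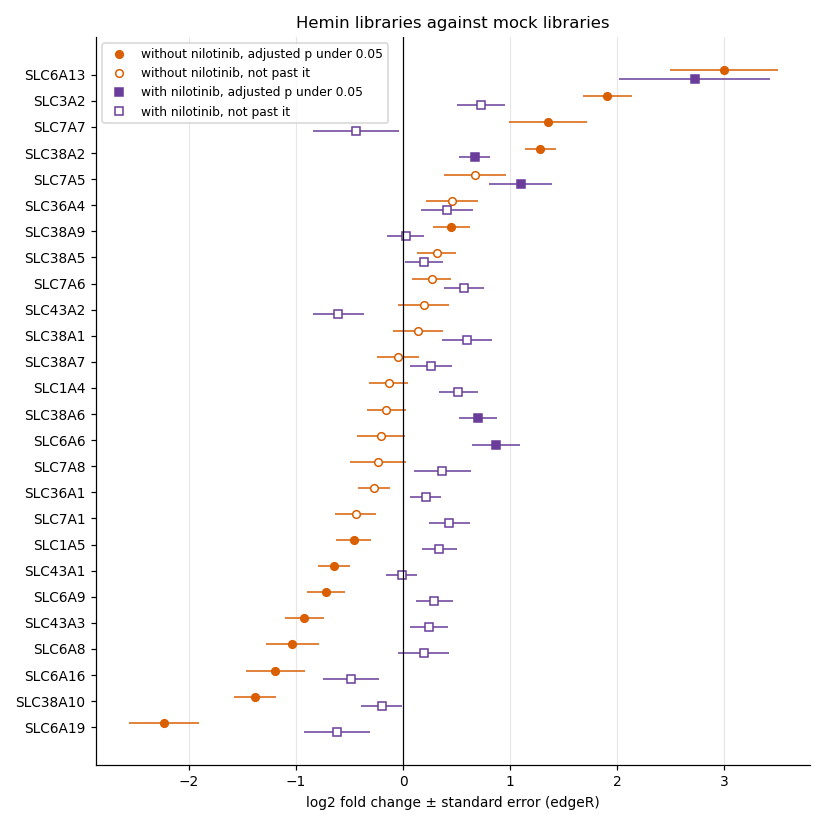
Hemin libraries against mock libraries for 26 amino acid transporter genes, without nilotinib (circles) and with nilotinib (squares). The horizontal axis is the log2 fold change and its standard error from edgeR, and filled points had an adjusted p under 0.05. Of the circles, 13 are filled, while of the squares only those of SLC6A13, SLC7A5, SLC6A6, SLC38A6 and SLC38A2 are.

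The difference between the nilotinib effects with and without hemin was tested as an interaction, given as the effect with hemin minus that without. It was past the threshold for 16 of 31 genes, or 51.6%, positive for 10 and negative for 6, where 30.1% of all genes differed, 17.1% upwards and 13% downwards. With no composition factors the split was 12 to 4, and with upper-quartile scaling 8 to 7 (shares of all genes not given). The positive genes were SLC1A5, SLC6A6, SLC6A8, SLC6A9, SLC6A19, SLC7A1, SLC38A6, SLC38A10, SLC43A1 and SLC43A3. The negative ones were SLC3A2, SLC38A2, SLC7A7, SLC6A4, SLC6A12 and SLC1A7. SLC6A4, SLC6A12 and SLC1A7 were among the 5 genes with means under 1 CPM. For SLC36A1 the interaction was 0.48 (SE 0.21, edgeR adjusted p = 0.088) and for SLC7A5 0.43 (SE 0.41, edgeR adjusted p = 0.463). With the replicate block, 11 were positive and 7 negative (share of all genes not given). The calls gained were SLC36A1 at 0.48 (edgeR adjusted p = 0.0479) and SLC43A2 at -0.85 (edgeR adjusted p = 0.0341).

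Among the heavy chains, SLC3A2 (ENSG00000168003, chromosome 11, 62856102 to 62888875, plus strand, build GRCh38.p12) was measured at 369, 436 and 456 CPM in mock DMSO, 278, 253 and 264 in mock nilotinib, 1644, 1537 and 1554 in hemin DMSO and 244, 479 and 593 in hemin nilotinib. The mock groups were separate from each other and far below hemin DMSO, while hemin nilotinib spread over a range that held every mock library. The log2 fold change with nilotinib was -0.67 (SE 0.22, edgeR adjusted p = 0.0244) without hemin and -1.85 (SE 0.23, edgeR adjusted p = 3.6e-06) with hemin. Without mock DMSO replicate 2 or 3 or mock nilotinib replicate 2 the first of these calls was lost, at log2 fold changes from -0.80 to -0.63 over all libraries left out. Hemin without nilotinib gave 1.91 (SE 0.23, edgeR adjusted p = 5.05e-06) and with nilotinib 0.73 (SE 0.22, edgeR adjusted p = 0.066). The interaction was -1.18 (SE 0.32, edgeR adjusted p = 0.0107). SLC3A1 had 35 counts in all.

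Of the 7 light chains 4 were tested. SLC7A5 (ENSG00000103257, chromosome 16, 87830023 to 87869488, minus strand) imports leucine and other large neutral amino acids. It stood at 578, 682 and 615 CPM in mock DMSO, 193, 138 and 109.6 in mock nilotinib, 1071, 902 and 1013 in hemin DMSO and 139, 394 and 409 in hemin nilotinib. Both nilotinib groups lay below both DMSO groups, and in hemin nilotinib replicate 1 was within the range of mock nilotinib while replicates 2 and 3 were above it. The log2 fold change with nilotinib was -2.09 (SE 0.30, edgeR adjusted p = 3.79e-05) without hemin and -1.66 (SE 0.30, edgeR adjusted p = 0.000138) with hemin. For hemin it was 0.67 (SE 0.29, edgeR adjusted p = 0.0615) without nilotinib, although the libraries were separate, and 1.10 (SE 0.29, edgeR adjusted p = 0.0387) with nilotinib. The first of these was called under 6 alternatives, DESeq2 among them.

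The other light chains were lower. SLC7A6, which exchanges cationic for neutral amino acids, was at 30.5, 34.1 and 36.8 CPM in mock DMSO, 12.8, 10.6 and 13.1 in mock nilotinib, 48.2, 30.8 and 42.9 in hemin DMSO and 14.8, 16.8 and 22.5 in hemin nilotinib. It fell with nilotinib in separate libraries, at -1.47 (SE 0.19, edgeR adjusted p = 1.15e-05) without hemin and -1.17 (SE 0.19, edgeR adjusted p = 4.56e-05) with hemin. Of the exon bases of SLC7A6, 55.56% overlap SLC7A6OS and AC020978.9 on the opposite strand, and the strand setting of the counting is not given in the sources used here. SLC7A7, a related exchanger of cationic amino acids, was at 1.19, 0.954 and 0.980 CPM in mock DMSO, 0.558, 0.729 and 0.951 in mock nilotinib, 2.91, 1.79 and 3.30 in hemin DMSO and 0.402, 0.329 and 0.888 in hemin nilotinib, with hemin DMSO above all other libraries. Its log2 fold change was 1.35 (SE 0.36, edgeR adjusted p = 0.00499) for hemin without nilotinib and -2.28 (SE 0.39, edgeR adjusted p = 8.79e-05) for nilotinib with hemin, with an interaction of -1.80 (SE 0.54). SLC7A8, the light chain LAT2, ranged from 24.6 to 80.3 CPM and fell with nilotinib without hemin, at -0.97 (SE 0.27, edgeR adjusted p = 0.00752). With hemin its libraries overlapped, at -0.37 (SE 0.26).

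The ratio of SLC3A2 to SLC7A5, both per gene length, was 0.617 ± 0.0541 (SD, n = 3) in mock DMSO, 1.74 ± 0.445 in mock nilotinib, 1.46 ± 0.0899 in hemin DMSO and 1.35 ± 0.246 in hemin nilotinib. Every library of the other groups had more heavy chain than light chain FPKM, with a lowest ratio of 1.11, and every mock DMSO library had less, with a highest ratio of 0.679. No test was run on the ratios.

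SLC7A5 has 1 promoter window in the RefSeq table (build GRCh38.p14). The stretch shown, chr16:87869507-87869647 on the minus strand, runs from 140 bases before the start through its first base, and is shown because SLC7A5 had the highest FPKM in mock DMSO of the genes that fell with nilotinib both with and without hemin (SLC3A2, which also fell in both, was higher in the other 3 groups). The capitals mark CACGTG, the core letters of an E-box, which begin 130 bases before the start.
SLC7A5: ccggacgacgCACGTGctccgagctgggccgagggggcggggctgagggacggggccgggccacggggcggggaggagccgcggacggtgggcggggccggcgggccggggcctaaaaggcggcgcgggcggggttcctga

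Of the 5 cationic amino acid transporters and relatives, 3 were tested. SLC7A1, the arginine and lysine importer CAT1, was at 188, 219 and 208 CPM in mock DMSO, 117, 92.1 and 83.7 in mock nilotinib, 178, 136 and 139 in hemin DMSO and 87.9, 157 and 150.4 in hemin nilotinib. Mock DMSO was above all other libraries, and mock nilotinib overlapped hemin nilotinib through replicate 1 of the latter. Nilotinib without hemin gave -1.07 (SE 0.19, edgeR adjusted p = 0.000338) and with hemin -0.20 (SE 0.19, edgeR adjusted p = 0.381), an interaction of 0.87 (SE 0.27). SLC7A3 had 29, 9 and 13 counts in mock DMSO, 14, 20 and 14 in hemin DMSO, 0 in each mock nilotinib library, and 1, 0 and 0 in hemin nilotinib. Without hemin this was at least 3.94-fold lower with nilotinib, computed at 3 counts in each mock nilotinib library (edgeR adjusted p = 0.000309). SLC7A4 ranged from 0.123 to 0.634 CPM and passed the threshold in none of the 4 comparisons (edgeR adjusted p 0.398 at the lowest).

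The neutral exchangers are SLC1A5 and SLC1A4, which trade small neutral amino acids such as serine and alanine across the plasma membrane. SLC1A5 (ENSG00000105281, chromosome 19, 46774883 to 46788594, minus strand) was at 594, 708 and 688 CPM in mock DMSO, 377, 399 and 383 in mock nilotinib, 589.5, 409.7 and 448 in hemin DMSO and 384, 541 and 539 in hemin nilotinib. It was highest in mock DMSO and varied least in mock nilotinib, and hemin DMSO and hemin nilotinib overlapped. Nilotinib lowered it without hemin, at -0.78 (SE 0.16, edgeR adjusted p = 0.00118), and gave 0.02 (SE 0.16, edgeR adjusted p = 0.933) with hemin, and the interaction was 0.80 (SE 0.23, edgeR adjusted p = 0.0169). Hemin without nilotinib gave -0.46 (SE 0.16, edgeR adjusted p = 0.0266), a call lost without mock DMSO replicate 2 or hemin DMSO replicate 2 or 3 (range -0.62 to -0.35) and with upper-quartile scaling. SLC1A4 ranged from 98.3 to 184.1 CPM and fell with nilotinib without hemin, at -0.47 (SE 0.18, edgeR adjusted p = 0.0493), a call lost under 12 of 17 alternatives.

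Both neutral exchangers have the letters TGATGCAA, the core of an amino acid response element, in a RefSeq promoter window, and these were the only tested genes of the 26 with a window in the table to hold them. The stretches are chr2:64989259-64989399 on the plus strand and chr19:46784814-46784954 on the minus strand (GRCh38.p14), each from 140 bases before a start through its first base. SLC1A4 has 2 windows in the table and SLC1A5 has 3, and those with the letters are shown. In SLC1A4 the letters stand on the opposite strand, written here as TTGCATCA, from 7 bases before the start, and in SLC1A5 they begin 97 bases before it.
SLC1A4: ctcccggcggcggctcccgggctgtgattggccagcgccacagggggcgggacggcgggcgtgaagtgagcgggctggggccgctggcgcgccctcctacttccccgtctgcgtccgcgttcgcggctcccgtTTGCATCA
SLC1A5: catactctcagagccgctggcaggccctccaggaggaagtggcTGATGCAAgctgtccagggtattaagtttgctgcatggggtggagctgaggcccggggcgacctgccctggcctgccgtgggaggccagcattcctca

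System A carriers import small neutral amino acids such as alanine and glutamine with sodium. SLC38A2 (ENSG00000134294, chromosome 12, 46358189 to 46372867, minus strand) was at 342, 332 and 336 CPM in mock DMSO, 107, 103 and 115 in mock nilotinib, 791, 819.6 and 851 in hemin DMSO and 132, 189 and 196 in hemin nilotinib. All 4 groups were separate, with mock nilotinib lowest and hemin DMSO highest. Nilotinib gave -1.64 (SE 0.15, edgeR adjusted p = 2.54e-07) without hemin and -2.25 (SE 0.15, edgeR adjusted p = 3.98e-09) with hemin, and hemin gave 1.28 (SE 0.14, edgeR adjusted p = 2.6e-06) without nilotinib and 0.67 (SE 0.14, edgeR adjusted p = 0.015) with it. The interaction was -0.61 (SE 0.20, edgeR adjusted p = 0.0312), a call lost under 10 of 21 alternatives.

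SLC38A1 (ENSG00000111371, chromosome 12, 46183063 to 46270017, minus strand) was at 333, 386 and 401 CPM in mock DMSO, 89.6, 69.5 and 58.4 in mock nilotinib, 446, 345 and 443 in hemin DMSO and 63.0, 133 and 134 in hemin nilotinib. The nilotinib groups lay below the DMSO groups in every library and overlapped each other. Its log2 fold change with nilotinib was -2.36 (SE 0.24, edgeR adjusted p = 1.05e-06) without hemin and -1.90 (SE 0.24, edgeR adjusted p = 3.81e-06) with hemin, while hemin gave 0.14 (SE 0.23) without nilotinib, with overlapping libraries. SLC38A4, the other system A gene, had 24 counts over all 12 libraries. SLC38A1, SLC38A2 and SLC38A4 lie on the minus strand of chromosome 12, within 46183063 to 46832408. Per gene length the ratio of SLC38A2 to SLC38A1 was 1.38 ± 0.157 in mock DMSO (SD, n = 3), 2.35 ± 0.588 in mock nilotinib, 3.07 ± 0.477 in hemin DMSO and 2.52 ± 0.577 in hemin nilotinib.

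**Figure D5:**
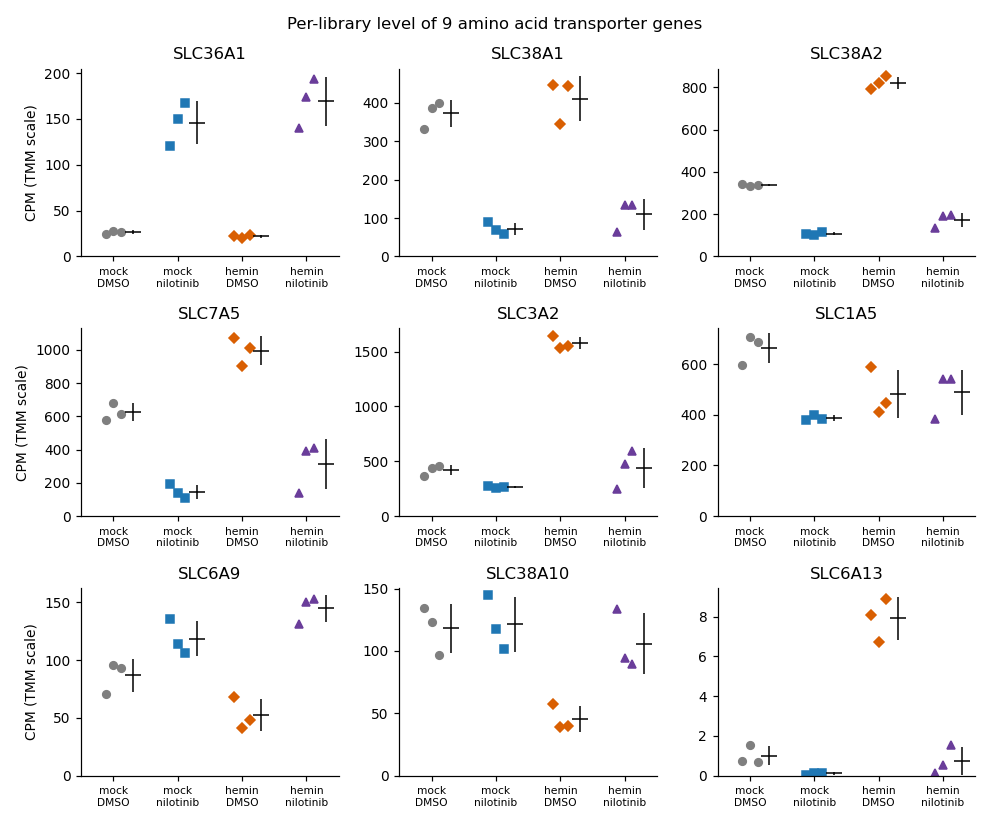
CPM on the TMM scale of 9 amino acid transporter genes in each of the 12 libraries. Each point is a library, the horizontal dash with its bar is the mean ± SD of 3 libraries, and every vertical axis starts at 0. SLC36A1 is high in both nilotinib groups, SLC38A1 and SLC7A5 are low there, and SLC3A2, SLC38A2 and SLC6A13 peak in hemin DMSO.

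SLC38A5, a system N glutamine carrier also known from red cell precursors, was at 66.3, 74.5 and 90.2 CPM in mock DMSO, 142, 137 and 135 in mock nilotinib, 99.4, 105 and 82.5 in hemin DMSO and 214, 135 and 126 in hemin nilotinib. Every nilotinib library exceeded every DMSO library. Its log2 fold change with nilotinib was 0.84 (SE 0.18, edgeR adjusted p = 0.00128) without hemin and 0.72 (SE 0.18, edgeR adjusted p = 0.00223) with hemin. SLC38A3, the other system N gene, was counted 88 times in all.

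Of the 6 other SLC38 genes 4 were tested. SLC38A10, a carrier of glutamine and related amino acids, was at 134, 123 and 96.6 CPM in mock DMSO, 145, 117 and 102 in mock nilotinib, 57.1, 39.0 and 39.9 in hemin DMSO and 134, 94.2 and 89.7 in hemin nilotinib. Only hemin DMSO stood apart, below all other libraries. Hemin without nilotinib gave -1.38 (SE 0.20, edgeR adjusted p = 2.47e-05), nilotinib gave 0.04 (SE 0.19) without hemin and 1.22 (SE 0.20, edgeR adjusted p = 4.71e-05) with hemin, and the interaction was 1.18 (SE 0.27, edgeR adjusted p = 0.0043). SLC38A9, a lysosomal arginine sensor that acts on mTORC1, was at 15.5, 15.5 and 15.1 CPM in mock DMSO, 14, 13.0 and 10.8 in mock nilotinib, 22.9, 22.2 and 18.0 in hemin DMSO and 15.8, 12.1 and 10.6 in hemin nilotinib. It rose with hemin without nilotinib, at 0.45 (SE 0.17, edgeR adjusted p = 0.035), a call lost under 8 of 17 alternatives, and fell with nilotinib in the presence of hemin, at -0.71 (SE 0.17, edgeR adjusted p = 0.00185).

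SLC38A6, a carrier of glutamine and glutamate, was at 10.3, 11.5 and 14.1 CPM in mock DMSO, 8.12, 7.15 and 7.35 in mock nilotinib, 12.8, 9.32 and 10.1 in hemin DMSO and 10.9, 12.8 and 13.1 in hemin nilotinib. Mock nilotinib was below all other libraries, and its log2 fold change was -0.67 (SE 0.18, edgeR adjusted p = 0.00681) for nilotinib without hemin and 0.70 (SE 0.18, edgeR adjusted p = 0.0335) for hemin with nilotinib. SLC38A7, a lysosomal glutamine exporter, ranged from 10.3 to 18.9 CPM and had an edgeR adjusted p of at least 0.349 in the comparisons.

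SLC36A1 (ENSG00000123643, chromosome 5, 151437046 to 151492381, plus strand) exports small amino acids with protons from lysosomes. It was at 24.4, 28.1 and 27.2 CPM in mock DMSO, 121, 149.6 and 168 in mock nilotinib, 22.6, 20.2 and 23.2 in hemin DMSO and 140.0, 174 and 193 in hemin nilotinib. Nilotinib and DMSO libraries were separate by a wide margin, with the lowest nilotinib library at 121 CPM and the highest DMSO library at 28.1 CPM. The log2 fold change was 2.46 (SE 0.15, edgeR adjusted p = 4.8e-09) without hemin and 2.94 (SE 0.16, edgeR adjusted p = 3.91e-10) with hemin, the largest rise with nilotinib among the 26 genes of at least 1 CPM in both. Hemin gave -0.27 (SE 0.15) without and 0.21 (SE 0.14) with nilotinib, neither past the threshold. SLC36A4, which carries tryptophan and proline, ranged from 6.77 to 15.2 CPM and passed it in none of the 4 comparisons either (edgeR adjusted p 0.118 at the lowest). SLC36A2 and SLC36A3, which also lie on chromosome 5, had 49 and 9 counts in all.

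SLC36A1 has 2 promoter windows in the RefSeq table, of which the one shown, chr5:151447463-151447603 on the plus strand (GRCh38.p14), runs from 140 bases before the start through its first base. The gene is shown because it led the rise with nilotinib, and this window was picked because it holds the most matches. The other window, chr5:151436796-151437095, spans the annotated gene start at 151437046 and holds 0 CACGTG. The capitals mark CACGTG, which occurs in the window shown 43 and 8 bases before its start and reads the same on both strands.
SLC36A1: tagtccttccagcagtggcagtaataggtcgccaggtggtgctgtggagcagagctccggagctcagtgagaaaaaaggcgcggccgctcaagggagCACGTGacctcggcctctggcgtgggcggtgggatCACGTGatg

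CACGTG was found in 7.26% of 35116 RefSeq promoters, TGATGCAA in 0.866% and AGATAA, letters bound by erythroid zinc finger factors such as GATA1, in 10.3%, searched on both strands. Of the 31 genes tested 26 matched the table by symbol, with 45 windows, and CACGTG occurred in 10 windows, 1 for each of SLC1A5, SLC1A7, SLC36A1, SLC38A5, SLC38A7, SLC43A1, SLC6A16, SLC7A5, SLC7A7 and SLC7A8. TGATGCAA occurred in 2 and AGATAA in 3 of the 45. Of the 10 genes with CACGTG, SLC36A1, SLC38A5 and SLC6A16 rose with nilotinib in both settings and SLC7A5 fell in both. SLC1A5, SLC43A1 and SLC7A8 fell and SLC1A7 rose only without hemin, SLC7A7 fell only with hemin, and SLC38A7 was not called. Of the genes whose windows lack CACGTG, SLC6A9 rose in both, and SLC3A2, SLC6A13, SLC7A6, SLC38A1 and SLC38A2 fell in both. A link between the letters and these changes was not tested. These letters describe the windows, and neither binding nor the start in use was measured.

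Of the 9 SLC6 carriers of amino acids 2 were tested. SLC6A9 (ENSG00000196517, chromosome 1, 43991500 to 44031467, minus strand) imports glycine. It was at 70.8, 96.0 and 93.6 CPM in mock DMSO, 135, 114 and 106 in mock nilotinib, 68.4, 41.2 and 48.6 in hemin DMSO and 132, 151 and 153 in hemin nilotinib. Nilotinib libraries were above DMSO libraries in both settings, and hemin DMSO was the lowest group. Nilotinib gave 0.45 (SE 0.17, edgeR adjusted p = 0.0474) without hemin, a call lost without any 1 of the 6 libraries (range 0.28 to 0.52), and 1.46 (SE 0.18, edgeR adjusted p = 2.76e-06) with hemin. Hemin without nilotinib gave -0.72 (SE 0.17, edgeR adjusted p = 0.00254), and the interaction was 1.01 (SE 0.25, edgeR adjusted p = 0.00606). SLC6A19, a carrier of neutral amino acids known from gut and kidney, was at 5.72, 7.39 and 6.98 CPM in mock DMSO, 3.20, 4.78 and 6.52 in mock nilotinib, 1.01, 1.21 and 2.0 in hemin DMSO and 2.62, 2.42 and 4.37 in hemin nilotinib. It was lowest in hemin DMSO, with -2.23 (SE 0.33, edgeR adjusted p = 3.43e-05) for hemin without nilotinib and 1.15 (SE 0.33, edgeR adjusted p = 0.00606) for nilotinib with hemin.

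The remaining SLC6 genes carry osmolytes, creatine, GABA and monoamines. SLC6A6 (ENSG00000131389, chromosome 3, 14402576 to 14489349, plus strand), the taurine transporter, was at 350.2, 245 and 259.9 CPM in mock DMSO, 74.4, 85.3 and 124 in mock nilotinib, 269, 221 and 251 in hemin DMSO and 127, 151 and 238 in hemin nilotinib. Mock nilotinib was lowest, and its log2 fold change with nilotinib was -1.59 (SE 0.23, edgeR adjusted p = 3.51e-05) without hemin and -0.52 (SE 0.22, edgeR adjusted p = 0.0497) with hemin, where the libraries overlapped and the call was lost under 9 of 17 alternatives. The interaction was 1.07 (SE 0.32, edgeR adjusted p = 0.0179). SLC6A8, the creatine transporter, was at 292, 248 and 127 CPM in mock DMSO, 212, 191 and 168 in mock nilotinib, 97.1, 129.6 and 99.6 in hemin DMSO and 275, 209 and 169 in hemin nilotinib. Mock DMSO spread widely and overlapped hemin DMSO, which was nonetheless lower at -1.03 (SE 0.24, edgeR adjusted p = 0.00203). Nilotinib gave -0.23 (SE 0.24) without hemin and 1.0 (SE 0.24, edgeR adjusted p = 0.00195) with hemin.

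SLC6A16, an orphan member, was at 5.09, 5.65 and 6.23 CPM in mock DMSO, 7.79, 11.1 and 14 in mock nilotinib, 2.76, 1.5 and 3.12 in hemin DMSO and 6.41, 7.49 and 9.51 in hemin nilotinib. Every nilotinib library exceeded every DMSO library, with log2 fold changes of 0.95 (SE 0.26, edgeR adjusted p = 0.00791) without hemin and 1.66 (SE 0.28, edgeR adjusted p = 7.37e-05) with hemin. The first of these was lost without mock nilotinib replicate 3 (log2 fold change 0.71, edgeR adjusted p = 0.0605). Hemin without nilotinib gave -1.19 (SE 0.28, edgeR adjusted p = 0.00171).

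SLC6A13 and SLC6A12, the GABA transporter GAT2 and the betaine and GABA transporter BGT1, lie beside each other on the minus strand of chromosome 12, at 220621 to 262873 and 190077 to 214570. SLC6A13 was at 0.756, 1.55 and 0.692 CPM in mock DMSO, 0.0507, 0.146 and 0.144 in mock nilotinib, 8.09, 6.73 and 8.90 in hemin DMSO and 0.144, 0.549 and 1.52 in hemin nilotinib. Hemin DMSO exceeded all other libraries, and mock nilotinib, with 2, 5 and 5 counts, was lowest together with hemin nilotinib replicate 1. Its log2 fold change was -3.11 (SE 0.68, edgeR adjusted p = 0.00157) and -3.39 (SE 0.52, edgeR adjusted p = 3.28e-05) for nilotinib without and with hemin, and 3.0 (SE 0.50, edgeR adjusted p = 0.000118) and 2.73 (SE 0.70, edgeR adjusted p = 0.0339) for hemin without and with nilotinib. In the last of these, replicates 2 and 3 of hemin nilotinib exceeded mock nilotinib and replicate 1 did not. SLC6A12 was at 0.0899, 0.119 and 0.154 CPM in mock DMSO, 0.101, 0.0292 and 0.0865 in mock nilotinib, 2.02, 1.88 and 3.20 in hemin DMSO and 0, 0.0824 and 0.257 in hemin nilotinib. The hemin DMSO libraries held 66, 59 and 126 counts and no other library more than 11. Hemin without nilotinib gave 4.26 (SE 0.58, edgeR adjusted p = 1.68e-05), nilotinib with hemin -4.28 (SE 0.60, edgeR adjusted p = 1.25e-05) and the interaction -3.58 (SE 1.08, edgeR adjusted p = 0.0204). SLC6A4, the serotonin transporter, was also highest in hemin DMSO, at 0.950, 1.21 and 1.62 CPM against at most 0.584 CPM elsewhere, with 3.03 (SE 0.54, edgeR adjusted p = 0.000204) for hemin without nilotinib.

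The SLC43 genes encode carriers of large neutral amino acids and, for SLC43A3, of purine bases. SLC43A3 was at 102, 109.9 and 112 CPM in mock DMSO, 104, 85.4 and 78.0 in mock nilotinib, 52.1, 67.6 and 51.2 in hemin DMSO and 139, 95.5 and 82.4 in hemin nilotinib. Hemin DMSO was below all other libraries, with -0.92 (SE 0.18, edgeR adjusted p = 0.000406) for hemin without nilotinib, 0.89 (SE 0.18, edgeR adjusted p = 0.000392) for nilotinib with hemin and an interaction of 1.16 (SE 0.25, edgeR adjusted p = 0.00278). Of its exon bases, 29.86% overlap AP000781.2 on the same strand, so reads of the pair could be split by the counting. SLC43A1 (LAT3) ranged from 40.2 to 77.0 CPM and was highest in mock DMSO. It fell with nilotinib without hemin, at -0.47 (SE 0.15, edgeR adjusted p = 0.0153), a call lost without mock DMSO replicate 2 or mock nilotinib replicate 3 (range -0.55 to -0.41), and with hemin without nilotinib, at -0.64 (SE 0.15, edgeR adjusted p = 0.00144). SLC43A2 (LAT4) was at 9.01, 8.51 and 6.55 CPM in mock DMSO, 18.2, 21.6 and 15.1 in mock nilotinib, 7.78, 10.4 and 9.28 in hemin DMSO and 15.6, 13.2 and 7.39 in hemin nilotinib. It rose with nilotinib without hemin, at 1.19 (SE 0.24, edgeR adjusted p = 0.000828), and gave 0.39 (SE 0.24, edgeR adjusted p = 0.164) with hemin.

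The 1 glutamate transporter tested, SLC1A7, had 4, 7 and 5 counts in mock DMSO, 17, 34 and 22 in mock nilotinib, 5, 19 and 18 in hemin DMSO, and 3, 21 and 12 in hemin nilotinib. Mock nilotinib lay above mock DMSO and the other groups spread over both. Its log2 fold change was 2.61 (SE 0.65, edgeR adjusted p = 0.00399) for nilotinib without hemin and 1.87 (SE 0.67, edgeR adjusted p = 0.0279) for hemin without nilotinib, the latter call being lost under 7 of 14 alternatives.

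Genes around these transporters were read from 2 lists. The first held 32 genes of amino acid sensing upstream of mTORC1, all tested. MTOR, RPTOR and MLST8, which are parts of mTORC1 itself, were counted among them. Of these, 7 rose and 4 fell with nilotinib without hemin, 14 and 8 with nilotinib in the presence of hemin, and 9 and 15 with hemin without nilotinib. These were 34.4%, 68.8% and 75% of the list, where 42.5%, 64.2% and 53.6% of all genes were called. With hemin in the presence of nilotinib edgeR and DESeq2 each called 0 of 32 (5.8% of all genes by edgeR), with 3 lower at an unadjusted p under 0.05 by either tool. The median log2 fold changes were -0.11, 0.30, -0.38 and 0.02, where those of all genes were 0.00, 0.02, -0.05 and 0.03. The sestrins, which restrain mTORC1 signalling and were picked after their values were seen, did not move together. With nilotinib without hemin, SESN1 and SESN3 had log2 fold changes of 0.93 (SE 0.17, edgeR adjusted p = 0.000437) and 1.52 (SE 0.16, edgeR adjusted p = 1.83e-06), and SESN2 of -0.70 (SE 0.28, edgeR adjusted p = 0.057). With hemin the log2 fold change of SESN2 was -2.04 (SE 0.29, edgeR adjusted p = 1.58e-05), while those of SESN1 and SESN3 were 0.53 (SE 0.17, edgeR adjusted p = 0.0134) and 0.68 (SE 0.16, edgeR adjusted p = 0.00162). The second held 19 amino acid carriers of other families, such as mitochondrial and lysosomal ones, of which 17 were tested. There 3 rose and 7 fell, 4 rose and 6 fell, 4 rose and 8 fell, and 1 rose and 1 fell in the same 4 comparisons. These were 58.8%, 58.8%, 70.6% and 11.8% of the 17, against 42.5%, 64.2%, 53.6% and 5.8% of all genes. Their medians were -0.49, -0.29, -0.49 and 0.05. SLC25A38, the mitochondrial glycine carrier of heme synthesis, also picked after its values were seen, had a log2 fold change of -0.70 (SE 0.14, edgeR adjusted p = 0.00094) with nilotinib without hemin and -0.29 (SE 0.14, edgeR adjusted p = 0.0912) with hemin.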

How the data were processed

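RNA-seq of K562 cells was measured in 12 libraries, 3 biological replicates in each of 4 groups, which were assigned from the sample titles. The authors deposited raw counts of reads per gene, which were the input of every test. They also deposited FPKM, in which counts per kilobase are divided by 1 scaling constant per library that does not equal its total. The FPKM were used for levels between genes and in alternatives. The build is GRCh38.p12 per the submitters' processing notes, all 58735 gene identifiers were found in GENCODE 29, and the aligner, the counter and the strand setting are not given in the sources used here. Promoter sequences came from the RefSeq table of build GRCh38.p14.

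Low counts were removed with filterByExpr (at least 10 counts, total of at least 15), which left 20821 genes. These were scaled by TMM and tested with the quasi-likelihood test of edgeR 4.0.16 in R 4.3.3, with 1 mean per group over all 12 libraries and Benjamini-Hochberg adjustment over all genes tested. A gene was called at an adjusted p under 0.05, and all p are two-sided. They set the difference between groups against the spread between these replicates. An exact permutation test of 3 against 3 libraries could not go below 0.1 and was not used. A group with 3 counts or fewer in each library was set to 3 counts for the bound of a fold, and totals of 33457078 to 50506990 set this floor. Nilotinib was compared without and with hemin, hemin without and with nilotinib, and the interaction was tested as the difference between the first pair.

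Genes named in full were, in each pairwise comparison, the called genes of at least 1 mean CPM that ranked 1 to 5 by rise or by fall, and the gene of highest mean FPKM in each family. The genes, lists and tests were chosen with earlier results of these data known. Alternatives were DESeq2 1.42.0, scaling by RLE, by the upper quartile or without factors, a filter of 1 count in all or of 10 counts in every library, fits to only those libraries that a comparison needs, a replicate block, limma-trend (limma 3.58.1) on log2(FPKM + 1) and log2(FPKM + 0.1), and each library left out in turn. The labels number the replicates. Libraries of the same number deviated together (correlation above 0.1 in all 3 pairs) for the 2 nilotinib groups, at 0.199 to 0.263, and for no other 2 groups compared. The others were at 0.0869 to 0.0989 (nilotinib without hemin), -0.00712 to 0.235 (nilotinib with hemin) and 0.0849 to 0.104 (hemin without nilotinib). All reported calls come from the fit without the replicate block, which was run as an alternative for every comparison. The fits were tested on simulated counts as a check of the code. There all genes had the same spread and few were changed, unlike in these data, so the check does not give their accuracy here. Figures were drawn in Python 3.11.15 with matplotlib 3.10.9. SLC7A11 is not analysed here, and 1 of the markers listed for K562 cells and the exon overlap of SLC1A5 with other genes are not reported here.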

Additional observations from a re-analysis of the deposited data

Results flagged for a closer look

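Each of 16 transporter genes is listed because the effect of nilotinib differed with and without hemin by the edgeR test of the difference itself (interaction, Benjamini-Hochberg adjusted p under 0.05). Values are the log2 effect with hemin minus that without. For SLC6A8, SLC6A19, SLC38A10 and SLC43A3 nilotinib gave no call without hemin and a rise with it, and the differences were 1.23, 1.62, 1.18 and 1.16. SLC6A9 rose in both settings, and its difference was 1.01. SLC1A5, SLC7A1, SLC38A6 and SLC43A1 fell without hemin and had no call with it, and the differences were 0.80, 0.87, 0.85 and 0.63. SLC6A6 fell in both, and its difference was 1.07. SLC3A2 and SLC38A2 fell further with hemin, with differences of -1.18 and -0.61. SLC7A7, SLC6A4 and SLC6A12 were called lower with hemin and not without it, with differences of -1.80, -2.29 and -3.58. SLC1A7 rose without hemin, at 4 to 34 counts a library in these groups, and its difference was -2.98. The calls of SLC1A5, SLC3A2, SLC6A6, SLC6A9, SLC6A19, SLC38A6, SLC38A10 and SLC43A3 held under every alternative run, and the other 8 were lost under at least 1. Of those 8, SLC6A8 alone kept its call with each library left out in turn, and the others ranged with a library left out from -3.69 to -2.54 for SLC1A7, -2.79 to -1.93 for SLC6A4, -4.98 to -3.04 for SLC6A12, 0.75 to 1.11 for SLC7A1, -2.33 to -1.52 for SLC7A7, -0.67 to -0.44 for SLC38A2 and 0.51 to 0.79 for SLC43A1. In hemin DMSO, against which the effect with hemin was measured, SLC1A5, SLC6A8, SLC6A9, SLC6A19, SLC38A10, SLC43A1 and SLC43A3 were called lower than in mock DMSO and SLC3A2, SLC38A2, SLC7A7, SLC6A4, SLC6A12 and SLC1A7 higher. The interaction shares all 12 libraries with the 4 pairwise comparisons.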

How the results depend on the processing

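The numbers of transporters called were within 1.5 times of the reported ones under every alternative for nilotinib without hemin (16 to 21, 20 reported), nilotinib with hemin (15 to 24, 20 reported), hemin without nilotinib (12 to 22, 16 reported) and the interaction (11 to 19, 16 reported). These are counts, and the number tested also changed. For nilotinib with hemin 15 of 25 were called with at least 10 counts in every library, and 24 of 55 with at least 1 count. The share of all genes called under each alternative is not given here. Of the reported calls, 14 of 20, 19 of 20, 13 of 16 and 8 of 16 held under every alternative in which the gene was tested (some low-count genes, such as SLC7A3, were not tested under all). Hemin with nilotinib, with 5 calls, did not: it had 3 with no composition factors, 9 of 55 with all genes of at least 1 count, 0 of 28 in its libraries alone, 1 on log2(FPKM + 1), 1 on log2(FPKM + 0.1), and 0 to 13 with a library left out. The cause was not tested. Some median log2 fold changes moved, where the cause was not tested. For nilotinib with hemin the median was -0.58 by DESeq2 and -0.47 over the 55 transporters with at least 1 count (all genes -0.13 and -0.04). For hemin without nilotinib it was 0.48 by DESeq2, 0.38 over the 55 and -0.12 with at least 10 counts in every library (all genes 0.13, 0.02 and -0.05). For the interaction it was -0.13 by DESeq2 and 0.0266 over the 55 (all genes -0.18 and -0.03). With no composition factors the median for hemin without nilotinib was -0.0897, where the median of all genes was -0.29. That scaling also moved the all-gene median to 0.20 for nilotinib with hemin and 0.27 for the interaction. With the replicate number as a block in all 12 libraries, 18, 21, 16, 4 and 18 were called in the 4 comparisons and the interaction. Over single genes, 2519 values stayed on their side of the threshold, 142 called values lost their call and 56 gained one, and no called value changed direction. The 24 genes with up to 88 counts did not pass the filter of the reported fit and were not tested in it. They entered the alternative with at least 1 count. Whether depth or low expression kept them out was not tested.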
